A study of Mus musculus with 6 samples.

Results

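The 10 integrin genes described here, all measured on the arrays, comprise 6 α subunit genes (Itga2, Itga3, Itga5, Itga6, Itga9 and Itgav) and 4 β subunit genes (Itgb1, Itgb3, Itgb4 and Itgb5), out of 19937 genes tested. They were chosen by name, with earlier results of these data known. Each had 1 probe set whose platform annotation gives that gene. RNA came from mouse embryonic stem (ES) cells, described as cloned from 46C cells. These are male, carry GFP knocked into Sox1 and have the 129P2/OlaHsd strain background. One group of 3 cultures carried a control vector and the other 3 a vector for FLAG-CTCFL, and both were kept under 1 µg/ml puromycin in medium with 10% serum. CTCFL (BORIS) is a germ cell paralog of the insulator protein CTCF, and the series is concerned with its action at promoters, so the comparison asks which integrin transcripts differ in ES cells that make it. The design text calls the 3 cultures of a group biological replicates. The number of separate transfections behind each group is not in the labels, and p-values cover the spread of these 6 arrays alone, which may in part be technical. Values are log2 signals of 1-colour Affymetrix Mouse Gene 1.0 ST arrays.

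Integrins are cell surface receptors built of 1 α and 1 β subunit. The pair decides the ligand: with the β1 subunit, α5 binds fibronectin, α3 and α6 bind laminins, α2 binds collagens and α9 binds tenascin-C and related proteins, while αv with β3 or β5 binds vitronectin and other proteins with an RGD motif. The β4 subunit pairs with α6 alone, in hemidesmosomes of epithelia. Inside the cell, talin and kindlin bind the β tail and switch the receptor on, and further proteins link it to actin. Mouse ES cells are known to attach to laminin and fibronectin largely through β1 integrins.

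The arrays were checked first. Ctcfl rose by 3.45 ± 0.05 on the log2 scale (SE, n = 3 per group; limma adjusted p = 6.15e-13). Array medians were 7.92 to 7.99, and FLAG-CTCFL replicate 2 had the smallest SD of its values (1.41). Of 10 ES cell markers all had signals above background, taken as 7.63 (95% of the olfactory and vomeronasal receptor genes lay under it), and their list mean was 12.12 to 12.14 in control arrays and 11.75 to 11.90 in FLAG-CTCFL arrays (6 of 10 lower). Nanog, Sox2, Klf4, Esrrb, Tdgf1 and Fgf4 were lower, while Pou5f1, Zfp42, Dppa4 and Utf1 did not pass (limma adjusted p under 0.05). Beside this and the marker counts below, 18.4% of all genes were lower and 12.5% higher. All 10 ES cell markers lay above the median mean signal, where 49.3% of all genes passed in either direction. The list mean was 7.72 to 7.76 and 7.70 to 7.75 for 7 fibroblast genes (1 lower; Dcn, Lum and Postn below background). For 7 leukocyte genes it was 8.51 to 8.53 and 8.22 to 8.31 (2 lower; Ptprc, Tyrobp, Csf1r and Cd14 below background). The 2 lower ones were well above background: Cd68 had means of 9.93 and 8.86, and Laptm5 of 11.12 and 10.29 (control, then FLAG-CTCFL). For 3 megakaryocyte genes it was 7.28 to 7.29 and 7.25 to 7.32 (none changed; Pf4 and Ppbp below background). For 4 keratinocyte genes it was 7.53 to 7.59 and 7.62 to 7.68 (1 higher; Dsg3 and Krt5 below background), and for 4 endothelial genes 8.19 to 8.26 and 8.10 to 8.21 (1 higher, 1 lower; none below background in both groups, but Kdr, the higher one, had a control mean of 7.56). The trophoblast list of 5 genes rose in 3 members (Cdx2, Eomes and Gata3; the control mean of Cdx2 was 7.56, below background), with Elf5 below background in both groups, and its mean went from 7.86 to 7.92 in control arrays to 8.09 to 8.19 in FLAG-CTCFL arrays. Whether the 6 lower ES cell markers or the 3 higher trophoblast markers have a part in the integrin values was not tested. In RNA from whole cultures, fewer cells that express a gene and less RNA per cell cannot be told apart.

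FLAG-CTCFL cells had less RNA of 5 integrin genes and more of 2. The vitronectin receptor subunit gene Itgb5 was 1.84-fold lower and its partner Itgav 1.39-fold lower, the tenascin receptor gene Itga9 was 1.61-fold lower, and Itgb1, the common β subunit gene, was 1.28-fold lower. The laminin receptor gene Itga6 was 1.14-fold lower. Itga5, for the fibronectin receptor, was 1.33-fold higher and Itga3, for a second laminin receptor, 1.19-fold higher. Itga2, Itgb3 and Itgb4 did not pass the test. The arrays of the 2 groups did not overlap for 8 of the 10 genes (all but Itga2 and Itgb4), as for 41.3% of all genes. Of all genes tested, 30.9% passed the same test in either direction (limma, Benjamini-Hochberg adjusted p under 0.05), 12.5% higher (2496) and 18.4% lower (3665); after quantile normalization the split was 3943 higher and 3306 lower. The 10 integrin genes were brighter than most: 8 lay at or above the median mean signal, and 7 of these 8 passed, where 49.3% of all genes that bright did. Of the 2 dimmer ones (Itga2 and Itgb3) none passed, against 12.5% of all dimmer genes. The median log2 fold change of the 10 genes was -0.15, beside 0.0037 for all genes. It was -0.11 after quantile normalization and -0.27 over the 8 brighter genes alone, beside 0.0099 and -0.02 for all genes under those settings.

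**Figure D1:**
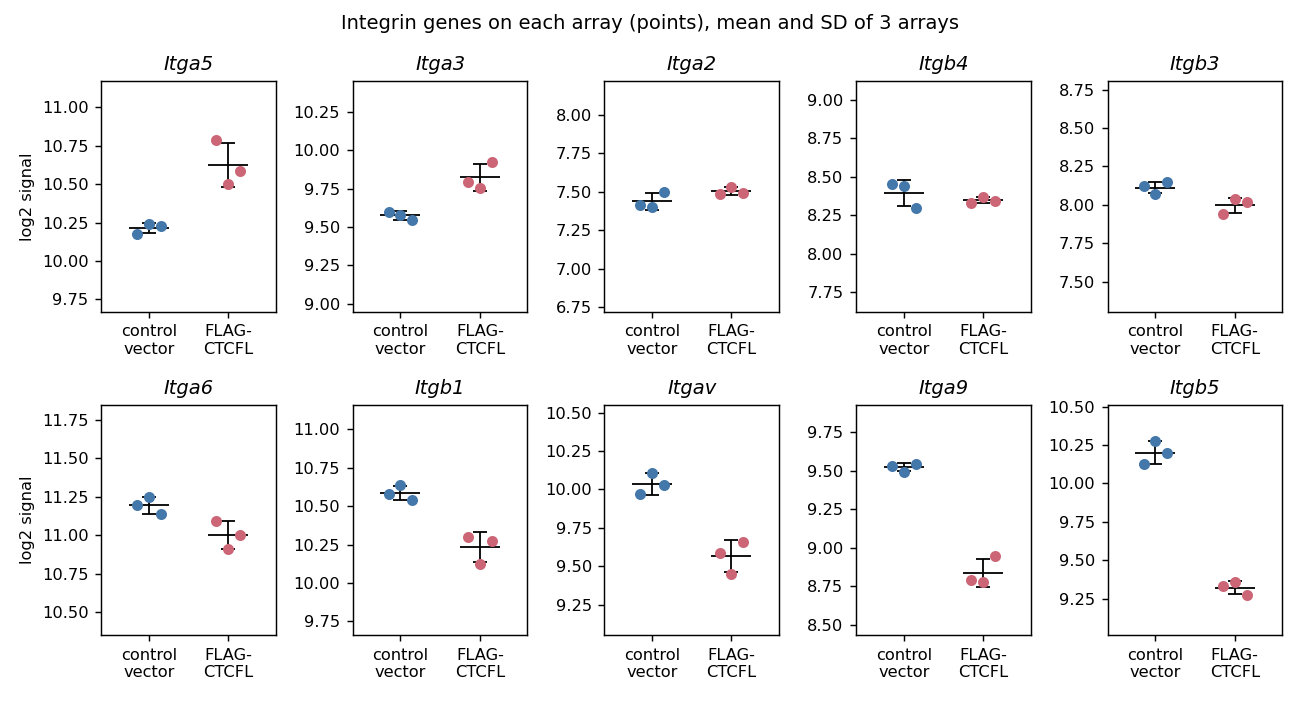
Log2 signal of the 10 integrin genes in 3 control vector arrays (blue points) and 3 FLAG-CTCFL arrays (red points), with the mean and SD (black); each panel has its own vertical axis of the same length, and panels are ordered from the largest rise (Itga5, 0.41) to the largest fall (Itgb5, -0.88). The groups do not overlap in 8 panels, and they overlap for Itga2 and Itgb4.

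The stretches before the transcription starts of 4 of these genes are printed because they include both rises and the largest falls. They were taken from RefSeq (GRCm38.p6) and cover 250 bases up to the start, with GC boxes in capitals (GGGCGG or its reverse complement CCGCCC, the letters bound by Sp1 family factors). RefSeq promoter sequences were matched for 7 of the 10 genes (Itga2, Itga3, Itga5, Itga9, Itgav, Itgb1 and Itgb5). The build used for the array probes is not given in the sources used here.
Itga5 (rose; chr15:103366792-103367041, minus strand): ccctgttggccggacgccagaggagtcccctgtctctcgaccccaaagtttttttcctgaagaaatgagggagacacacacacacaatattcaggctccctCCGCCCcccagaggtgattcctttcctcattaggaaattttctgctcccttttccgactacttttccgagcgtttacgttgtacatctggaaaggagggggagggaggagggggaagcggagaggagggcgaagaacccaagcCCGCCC
Itga3 (rose; chr11:95076715-95076964, minus strand): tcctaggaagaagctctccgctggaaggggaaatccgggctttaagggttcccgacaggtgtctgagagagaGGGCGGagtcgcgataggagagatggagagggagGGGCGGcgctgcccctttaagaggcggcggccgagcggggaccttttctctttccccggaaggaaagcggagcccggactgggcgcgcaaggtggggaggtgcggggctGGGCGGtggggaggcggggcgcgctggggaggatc
Itgb5 (fell; chr16:33829415-33829664, plus strand): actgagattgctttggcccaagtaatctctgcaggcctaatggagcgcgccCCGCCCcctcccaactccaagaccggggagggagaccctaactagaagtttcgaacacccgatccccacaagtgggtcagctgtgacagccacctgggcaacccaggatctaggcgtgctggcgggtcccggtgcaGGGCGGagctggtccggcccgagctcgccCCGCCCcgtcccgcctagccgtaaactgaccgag
Itga9 (fell; chr9:118711442-118711691, plus strand): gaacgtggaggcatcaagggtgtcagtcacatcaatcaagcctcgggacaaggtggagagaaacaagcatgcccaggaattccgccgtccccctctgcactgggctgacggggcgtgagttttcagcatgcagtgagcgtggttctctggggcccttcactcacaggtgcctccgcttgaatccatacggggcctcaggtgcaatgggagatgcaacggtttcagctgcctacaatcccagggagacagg
GC boxes were found 2 times before Itga5, 3 times before Itga3 and 3 times before Itgb5, and not before Itga9. RefSeq gives Itga3 a second start (stretch chr11:95069199-95069448, minus strand), with 1 GC box before it; the first is printed. Of the 7 genes with sequence, 4 had at least 1 GC box (Itga3, Itga5, Itgb1 and Itgb5), as did 32.7% of all 32851 RefSeq promoters over the same 250 bases. These shares are not matched for base content. The stretches before the first starts of the 7 genes held 55.6% (Itga5) to 68.0% (Itgb1) G or C, beside a median of 52.4% for all promoters. The core letters of the CTCF motif (CC, any 3 bases, AG, any 2 bases and GGC, on either strand) were in none of the 7, and in 7.2% of all promoters. Of 12 further integrin genes with RefSeq sequence 2 held them, Itga8, which was called higher, and Itga10, which was not called. The AP-1 letters TGANTCA were likewise in none of the 7 (6.7% of all promoters), and the TEAD letters GGAATG were found once, 7 bases before the Itgb1 start (12.6% of all promoters). A match is only a match of letters, and its absence from this window says nothing on binding.

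Itga5 codes for the α5 subunit, whose pair with β1 is the main fibronectin receptor. Its signal was 10.18, 10.24 and 10.23 with the control vector, against 10.79, 10.50 and 10.59 with FLAG-CTCFL. All 3 FLAG-CTCFL arrays were above all controls, and they spread more widely (SD 0.15 against 0.03). The rise was 0.41 ± 0.06 on the log2 scale (SE, n = 3 per group; limma adjusted p = 0.000212). Itga3 codes for the α3 subunit of a laminin receptor. It read 9.60, 9.58 and 9.54 with the control vector, against 9.79, 9.76 and 9.92 with FLAG-CTCFL, again without overlap, a rise of 0.25 ± 0.05 (adjusted p = 0.00173). Quantile normalization of the arrays left both rises in place, at 0.48 and 0.33.

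Itga6 codes for the α6 subunit, which binds laminin with either β1 or β4. Its signal was 11.20, 11.25 and 11.14 with the control vector, against 11.09, 10.91 and 11.004 with FLAG-CTCFL. The groups did not overlap, though the gap between FLAG-CTCFL replicate 1 and control replicate 3 was small. The fall was 0.19 ± 0.05 (adjusted p = 0.0138). It was the least firm of the 7 calls: the call did not hold once array medians were subtracted (-0.17, adjusted p = 0.0561), with each gene's own variance (adjusted p = 0.118) and without control replicate 2 (-0.16, adjusted p = 0.0758), and it shrank to -0.11 after quantile normalization (adjusted p = 0.0292). Itga3 and Itga6 thus moved in opposite directions although both gene products take part in laminin receptors. Itga3 minus Itga6, taken within each array, went from -1.62 ± 0.04 to -1.18 ± 0.11 (SD, n = 3 per group), a shift of 0.44 with no overlap between groups.

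Itga9 codes for the α9 subunit, a receptor for tenascin-C and other ligands with β1. Its signal was 9.53, 9.49 and 9.55 with the control vector, against 8.79, 8.77 and 8.94 with FLAG-CTCFL. Every FLAG-CTCFL array lay more than the whole control range below the controls. The fall was 0.69 ± 0.05 (adjusted p = 3.01e-07). Itgav codes for the αv subunit, which joins several β subunits. It read 9.97, 10.11 and 10.03 with the control vector, against 9.58, 9.45 and 9.66 with FLAG-CTCFL, a fall of 0.47 ± 0.06 without overlap (adjusted p = 2.87e-05). Itga5 minus Itgav within each array rose from 0.18 ± 0.04 to 1.06 ± 0.14 (SD, n = 3 per group), by 0.88. These 2 genes code for the α subunits of the best known fibronectin receptors, and their transcripts changed in opposite directions.

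Itga2 codes for the α2 subunit of a collagen receptor. Its signal was 7.41, 7.40 and 7.50 with the control vector, against 7.48, 7.53 and 7.49 with FLAG-CTCFL. All 6 values were below the background level of 7.63, so no level or change can be read for it (difference 0.06, adjusted p = 0.335).

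Itgb1 codes for the β1 subunit that serves α2, α3, α5, α6 and α9 and can also join αv. Its signal was 10.58, 10.64 and 10.54 with the control vector, against 10.30, 10.12 and 10.28 with FLAG-CTCFL. The groups were well apart, with FLAG-CTCFL replicate 2 lowest. The fall was 0.35 ± 0.05 (adjusted p = 0.000179). Of its α partner genes here, 2 rose (Itga3 and Itga5), 3 fell (Itga6, Itga9 and Itgav) and Itga2 was below background.

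Itgb5 codes for the β5 subunit, whose pair with αv binds vitronectin. Its signal was 10.13, 10.28 and 10.20 with the control vector, against 9.33, 9.36 and 9.28 with FLAG-CTCFL. This was the largest fall among the 10 genes, 0.88 ± 0.05 (adjusted p = 2.21e-08), and its 95% interval of -0.98 to -0.77 overlapped that of Itga9 (-0.80 to -0.58) but not that of Itgav (-0.60 to -0.35). Itgb5 and Itga9 were also the only 2 of the 10 genes that passed with a change of at least 1.5-fold, as did 3.56% of all genes tested. Itgb3 codes for the β3 subunit, the other classical αv partner. It read 8.12, 8.07 and 8.15 with the control vector, against 7.94, 8.04 and 8.02 with FLAG-CTCFL. Its arrays did not overlap, yet the difference of -0.11 ± 0.04 did not pass (adjusted p = 0.0731; 95% interval -0.21 to -0.02). It passed after quantile normalization (-0.12, adjusted p = 0.0237), with array weights (-0.10, adjusted p = 0.0222) and without FLAG-CTCFL replicate 2 (-0.13, adjusted p = 0.0405). Itgb3 minus Itgb5 within each array went from -2.09 ± 0.10 to -1.32 ± 0.06, a shift of 0.76.

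Itgb4 codes for the β4 subunit of hemidesmosomes. Its signal was 8.45, 8.44 and 8.30 with the control vector, against 8.33, 8.37 and 8.35 with FLAG-CTCFL. The FLAG-CTCFL values fell within the control range, and the difference was -0.05 (adjusted p = 0.551; 95% interval -0.15 to 0.06). Itgb1 minus Itgb4, for the 2 partners of α6, went from 2.19 ± 0.06 to 1.89 ± 0.12, a shift of -0.30. For each of the 4 within-array differences the groups did not overlap, and the exact two-sided permutation test over the 6 arrays gave p = 0.1, the smallest it can give here, also after adjustment over the 4. For Itga5 minus Itgav and Itga3 minus Itga6 this outcome followed from the single genes, whose groups already lay apart in opposite directions, so it adds no support. For Itgb1 minus Itgb4 and Itgb3 minus Itgb5 it largely reflects the falls of Itgb1 and Itgb5 given above. Neither of these differences is separate support. Such a difference shows unequal change of the transcripts only; its own size depends on the probes.

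**Figure D2:**
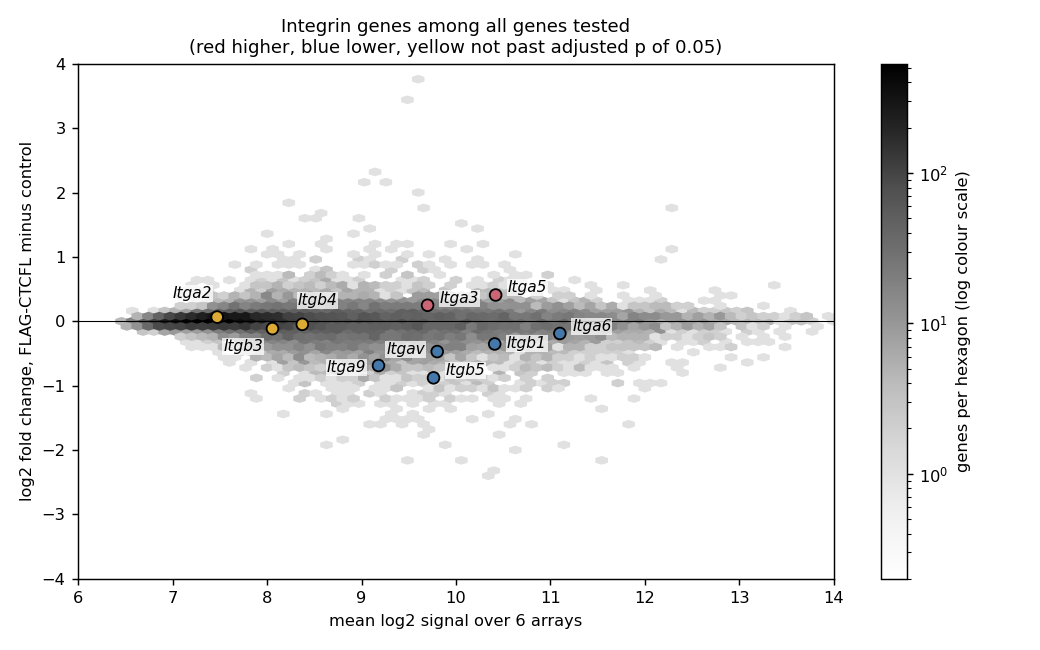
Change of each gene (vertical axis, log2 fold change, FLAG-CTCFL minus control) against its mean log2 signal over 6 arrays (horizontal axis); grey hexagons show how many of the 19937 genes fall in each place, on a log colour scale, and circles mark the 10 integrin genes (red higher, blue lower, yellow not past the threshold). Itgb5 (-0.88) and Itga9 (-0.69) lie below the dense part of the cloud, whereas Itga2, Itgb3 and Itgb4 lie within it at lower signal.

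The other 17 integrin genes, which include those of leukocytes, platelets and muscle, had log2 fold changes of -0.12 to 0.24. Of these, 2 were higher and none lower by limma (11.8% called, against 30.9% of all genes). They were dim: 15 lay below the median mean signal of all genes, where 12.5% of genes were called, and Itgam, Itgax, Itgb2, Itgb6 and Itgb8 were below background in both groups. Itga8, for a subunit that pairs with β1 and binds nephronectin, read 7.52, 7.59 and 7.66 with the control vector, against 7.84, 7.71 and 7.92 with FLAG-CTCFL, a rise of 0.24 ± 0.06 from a control mean below background (adjusted p = 0.00616, and 0.108 with each gene's own variance). Itgal, for the α subunit of the leukocyte receptor LFA-1, read 7.70, 7.71 and 7.75 against 7.81, 7.999 and 7.83, a rise of 0.16 ± 0.05 (adjusted p = 0.0351). That call was lost without any single control array (adjusted p between 0.0596 and 0.114), without FLAG-CTCFL replicate 2 (0.10, adjusted p = 0.0987) and with each gene's own variance (adjusted p = 0.172). The other 15 genes differed by -0.12 to 0.17.

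**Figure D3:**
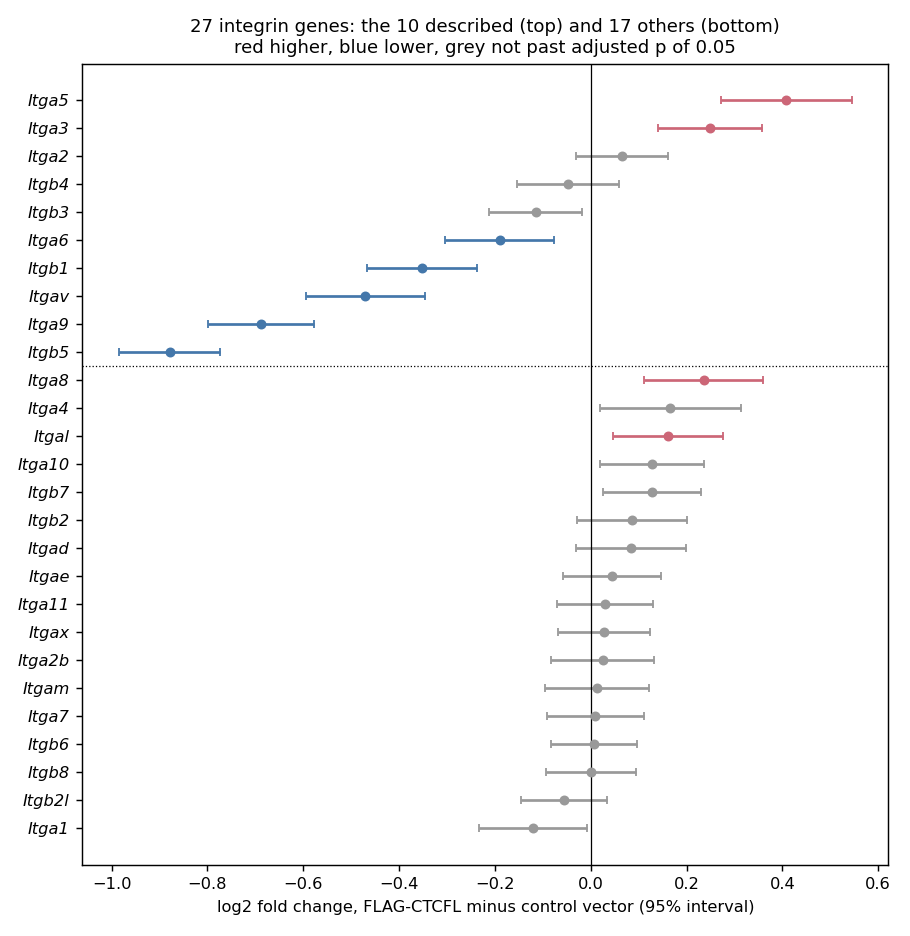
Log2 fold change with 95% interval (limma) of the 10 integrin genes described (above the dotted line) and of 17 further integrin genes (below it), red for higher, blue for lower and grey for not past the adjusted p of 0.05. Falls past the threshold are seen above the line for Itga6, Itgb1, Itgav, Itga9 and Itgb5, and none below it. The 2 sets differ in brightness: 15 of the 17 genes below the line lay under the median signal of all genes, against 2 of the 10 above it.

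Among the ligands, Ccn1, Ccn2, Tgfb1 and Thbs1 rose, and Nid1, Lamb1 and Lama1 fell. Of 10 laminin chain genes measured, 2 were lower and 8 not called. Of 27 measured genes of matrix and other ligands, 7 were higher and 4 lower (40.7%, beside 30.9% of all genes; median 0.02). Of these, 16 were at or above the median signal, and 10 of the 16 were called, beside 49.3% of all genes that bright. Tnc, for the tenascin-C that α9β1 binds, is counted among the 7, but it was below background in both groups. Ccn1 and Ccn2, secreted proteins that bind integrins, rose by 1.23 ± 0.05 (adjusted p = 1.62e-09) and 0.93 ± 0.06 (adjusted p = 8.81e-08), Tgfb1, whose latent form is bound by αv integrins, by 0.99 ± 0.05 (adjusted p = 1.53e-08), and thrombospondin 1 (Thbs1) by 0.54 ± 0.06 (adjusted p = 1.49e-05). Nidogen 1 (Nid1), a linker of the laminin network, fell by 1.46 ± 0.06 (adjusted p = 2.49e-09) and the laminin chain gene Lamb1 by 0.50 ± 0.05 (adjusted p = 6.70e-06). Lama1, the α chain of laminin-111 and a ligand of α6β1, fell by 0.28 ± 0.06 (adjusted p = 0.00213), while Lama5 differed by 0.10 (adjusted p = 0.0935) and passed after quantile normalization (0.19, adjusted p = 0.00203) and with array weights (0.12, adjusted p = 0.00453). Fn1, for fibronectin, read 11.99, 12.27 and 12.02 against 12.07, 11.78 and 11.91, with overlapping groups (-0.17 ± 0.08, adjusted p = 0.130); it passed without FLAG-CTCFL replicate 1 (-0.25, adjusted p = 0.0216) and with array weights (-0.19, adjusted p = 0.00958). Vtn, for vitronectin, was below background (-0.0081, adjusted p = 0.936). Npnt, for the nephronectin that α8β1 binds, rose by 0.34 ± 0.05 (adjusted p = 0.000233); it was picked out after its value was seen. Of the remaining called ligand genes, given to complete the count, Col1a1 rose (0.16, adjusted p = 0.0314) and Mfge8 fell (-0.20, adjusted p = 0.00379). Spp1 and Fbn1 were not analysed here.

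Genes whose products bind integrin tails or link them to actin moved both ways. Of 22 measured, 4 were higher and 6 lower (45.5%; median -0.02), beside 30.9% of all genes. Of the 18 at or above the median signal 8 were called, a share near the 49.3% of all genes that bright. After quantile normalization 8 of the 22 were higher and 6 lower (median 0.04). Fermt2, for kindlin-2, the kindlin of most non-blood cells, read 11.35, 11.37 and 11.31 against 10.74, 10.51 and 10.61, a fall of 0.72 ± 0.05 (adjusted p = 3.50e-07). Fermt1, for kindlin-1, fell by 0.13 ± 0.05 at the threshold (adjusted p = 0.0478); this call was lost in 10 of the other settings, each array left out but FLAG-CTCFL replicate 3 among them. Tln1, for the main talin, differed by 0.09 (adjusted p = 0.294) and passed after quantile normalization (0.17, adjusted p = 0.00834), with array weights (0.10, adjusted p = 0.0394) and without FLAG-CTCFL replicate 2 (0.15, adjusted p = 0.0396), whereas Tln2, for the second talin, rose by 0.42 ± 0.04 (adjusted p = 5.67e-06). ILK, PINCH and parvin form a complex that sits on β tails, and their transcripts moved in both directions. Ilk rose by 0.23 ± 0.04 (adjusted p = 0.000832). Lims1, for PINCH1, fell by 0.42 ± 0.05 (adjusted p = 4.77e-05), Parvb, for β-parvin, by 0.90 ± 0.07 (adjusted p = 2.66e-07), and Rsu1, for a PINCH-bound protein, by 0.38 ± 0.05 (adjusted p = 2.85e-05). To complete the complex, Lims2, for PINCH2, rose by 0.14 ± 0.04 (adjusted p = 0.0266), and Parva, for α-parvin, differed by 0.06 ± 0.05 (adjusted p = 0.462); both were picked out after their values were seen. Flna, for the actin crosslinker filamin A that binds β tails, fell by 0.60 ± 0.07 (adjusted p = 1.63e-05). Fermt2 lies on chromosome 14 and Flna on chromosome X. On chromosomes 6, 14 and X together 28.8% of genes were lower, against 16.9% on the others, and none of the 27 integrin genes lies on these 3. Without genes of these chromosomes 4 of the linkers were higher and 4 lower.

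Signalling genes downstream of integrins also moved both ways. Of 16 measured, 3 were higher and 5 lower (50%; median -0.03, and 0.04 after quantile normalization), beside 30.9% of all genes. Of the 14 at or above the median signal 8 were called, beside 49.3% of all genes that bright. Ptk2b, for the FAK-related kinase PYK2 and on chromosome 14, fell by 0.79 ± 0.05 (adjusted p = 8.99e-08), Dock1, a Rac activator that acts with p130Cas and Crk, by 0.60 ± 0.05 (adjusted p = 1.31e-06), and the Src family kinase genes Yes1 and Src by 0.57 ± 0.06 (adjusted p = 6.30e-06) and 0.25 ± 0.05 (adjusted p = 0.00232). Rapgef1, for a Rap1 activator, rose by 0.44 ± 0.05 (adjusted p = 1.54e-05), and Git2, an adhesion scaffold, by 0.21 ± 0.05 (adjusted p = 0.00570). With each gene's own variance 1 was higher and 3 lower, and Src and Git2 were no longer called (adjusted p = 0.0619 and 0.0800). The FAK gene Ptk2, with Nedd9 and Pak1, was not analysed here.

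Genes for integrin inhibitors and traffic gave 3 higher and 2 lower of 12 (41.7%; median 0.04), beside 30.9% of all genes. Of the 10 at or above the median signal 4 were called, where 49.3% of all genes that bright were. Rab21, for a GTPase that binds α tails and carries β1 integrins through endosomes, rose by 0.36 ± 0.06 (adjusted p = 0.000282), and Snx17, for a sorting protein that binds β tails and returns them to the surface, by 0.27 ± 0.06 (adjusted p = 0.00177). Dab2, an endocytic adaptor, rose by 0.19 ± 0.05 (adjusted p = 0.00774) with its brightest probe set, while the mean of its probe sets differed by 0.06 (adjusted p = 0.321). Rab25, for a GTPase that recycles α5β1, fell by 0.52 ± 0.07 (adjusted p = 4.84e-05), and Rasa1, a Ras GTPase-activating protein that binds α tails, by 0.22 ± 0.06 (adjusted p = 0.00719). With each gene's own variance 1 was higher and 1 lower.

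Among genes for membrane partners of integrins, 3 of 13 were higher and 7 lower (76.9%), beside 30.9% of all genes. Their median was -0.20, and -0.13 after quantile normalization. Of the 12 at or above the median signal 9 were called, beside 49.3% of all genes that bright. Of the tetraspanins, which gather laminin-binding integrins into patches, Cd9, on chromosome 6, read 11.15, 11.12 and 11.02 against 10.55, 10.28 and 10.41, a fall of 0.69 ± 0.06 (adjusted p = 2.03e-06), Cd63 fell by 0.34 ± 0.07 (adjusted p = 0.00124) and Cd81 by 0.28 ± 0.05 (adjusted p = 0.000599). Cd151, the tetraspanin most tightly bound to α3β1 and α6β1, differed by 0.01 ± 0.06 (adjusted p = 0.934; 95% interval -0.12 to 0.14). Igsf8, for a partner of CD9 and CD81, fell by 0.20 ± 0.04 (adjusted p = 0.00204) and Emp2, for an integrin-associated membrane protein, by 0.23 ± 0.05 (adjusted p = 0.00181). Cd47, for a partner of αvβ3 and receptor of thrombospondin 1, rose by 0.30 ± 0.05 (adjusted p = 0.000223). The other called genes, given to complete the count, were Plaur (0.31) and Sdc1 (0.20), which rose, and Cd82 (-0.21) and Sdc4 (-0.21), which fell. With each gene's own variance 1 was higher and 4 lower, and Cd63 was not called (adjusted p = 0.0817).

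Of 5 hemidesmosome genes 1 was lower (20%, beside 18.4% lower of all genes; median 0.0013): Dst, for dystonin, by 0.20 ± 0.06 (adjusted p = 0.0133), a call lost without control replicate 2 (-0.18, adjusted p = 0.0670) and with each gene's own variance (adjusted p = 0.130). Plec, for plectin, which binds the β4 tail, differed by -0.13 ± 0.05 (adjusted p = 0.0547), and it passed without dim genes (adjusted p = 0.0481 and 0.0427 with the filter at the 25th and 50th percentile), with array weights (0.00470) and without FLAG-CTCFL replicate 1 (-0.17, adjusted p = 0.0125).

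**Figure D4:**
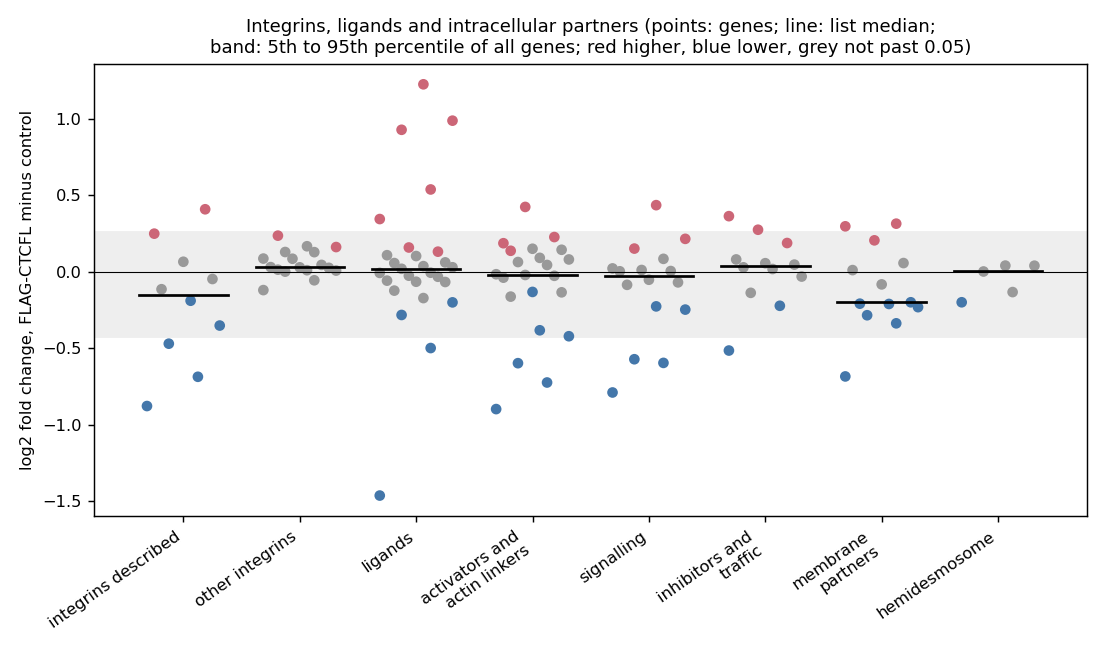
Log2 fold change (FLAG-CTCFL minus control vector) of each measured gene in the integrin list, the other integrins and 6 lists of the integrin pathway; black lines are list medians, the grey band spans the 5th to 95th percentile of all genes (-0.43 to 0.26), and red, blue and grey points are higher, lower and not past the threshold. Ligand genes reach furthest in both directions (1.23 for Ccn1 and -1.46 for Nid1). The medians of the 10 integrin genes (-0.15) and of the membrane partners (-0.20) lie below 0. Those of the activators and actin linkers (-0.02) and of the signalling genes (-0.03) lie just below 0.

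The integrin calls were compared over 17 other settings for the analysis. Itga3, Itga5, Itga9, Itgav, Itgb1 and Itgb5 kept their direction and stayed past the threshold in all 17, with log2 fold changes of 0.20 to 0.33 for Itga3, 0.33 to 0.48 for Itga5, -0.74 to -0.60 for Itga9, -0.52 to -0.39 for Itgav, -0.39 to -0.29 for Itgb1 and -0.92 to -0.81 for Itgb5. Itga3 and Itga5 came nearest to the threshold with each gene's own variance (adjusted p = 0.0493 and 0.0473). Itga6 was called in 14 of 17 and Itgb3 in 3 of the 16 that held it.

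**Figure D5:**
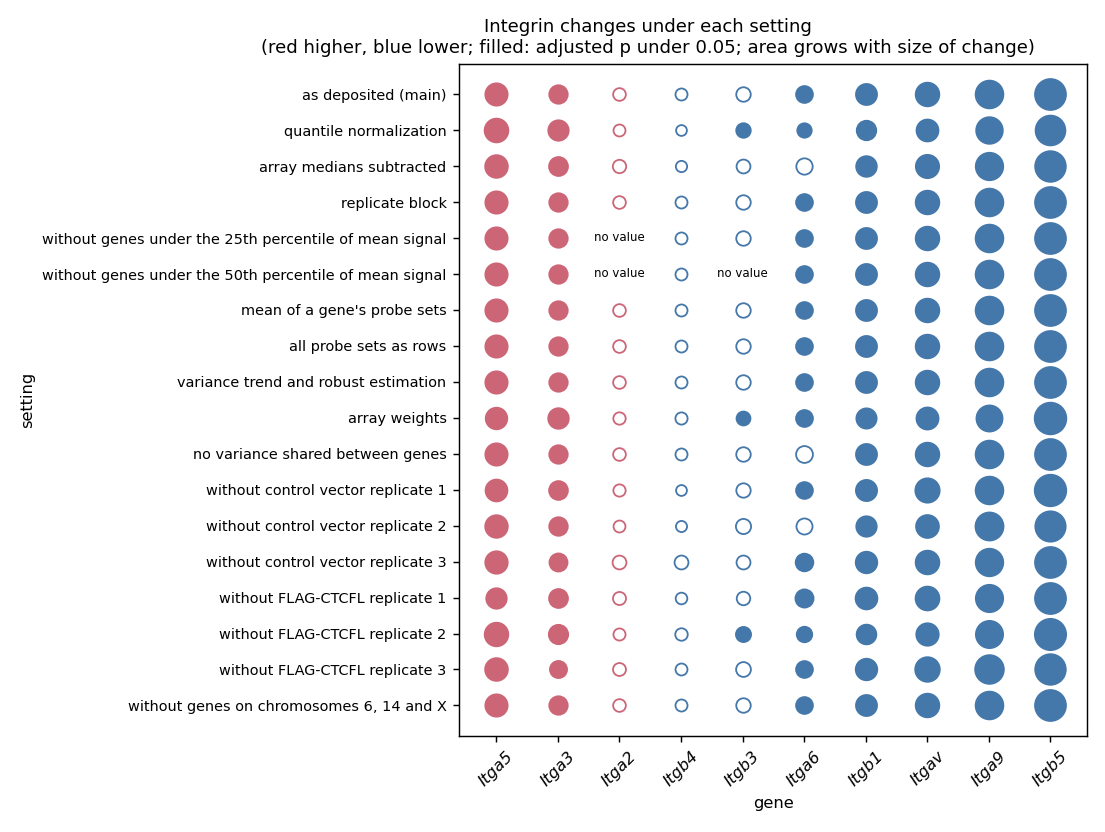
Change of the 10 integrin genes (columns) under the analysis as deposited and 17 other settings (rows): red circles higher and blue circles lower in FLAG-CTCFL arrays, filled where the adjusted p is under 0.05, with an area that grows with the size of the log2 fold change. Filled circles stand in every row for Itga5, Itga3, Itgb1, Itgav, Itga9 and Itgb5, while Itga6 is open in 3 rows and Itgb3 filled in 3.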

How the data were processed

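Total RNA (200 ng per sample) of 3 control vector and 3 FLAG-CTCFL cultures was labelled with the WT terminal labelling kit and hybridised to single-colour arrays, per the labels' protocols. The authors deposited 1 log2 signal per probe set and array (34760 probe sets). The log2 scale was read from the values. How the authors corrected background, summarised probes and scaled arrays was not given in the sources used here, and scaling can hide a shift common to most genes. The platform annotation gave 1 gene to 21640 probe sets, several to 1321 and none to 11799; names were updated by Entrez ID (21553 matched in GRCm38.p6). The brightest probe set per gene was kept (19937 genes).

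A linear model with a group term was fitted to every gene (limma 3.58.1 under R 4.3.3, lmFit and eBayes); two-sided p-values were adjusted by Benjamini-Hochberg over 19937 genes, at a threshold of 0.05 without a filter; figures used matplotlib 3.10.9. The fit was also run on simulated data with independent normal errors and few changed genes, which checks the code and not the results given here. Errors beside changes are moderated SEs, and the number of arrays limits the precision. The genes and lists were chosen with earlier results of these data known; of the lists, all called integrins, up to 6 called genes with the smallest p per list and 12 textbook partners were named, 2 of them (Spp1 and Ptk2) not analysed here. Parameters tried otherwise were the scaling, a replicate block, filters on dim genes, the probe sets used, the variance model, the threshold and each array left out, and, chosen after seeing the data, the genes of chromosomes 6, 14 and X.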

Additional observations from a re-analysis of the deposited data

How the results depend on the processing

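The 10 integrin genes kept their direction under every setting that gave a value; filters on dim genes gave none for Itga2 (both filters) and Itgb3 (50th percentile). Itga6 was no longer called after subtraction of array medians (-0.17) or with each gene's own variance (-0.19), and with 1 array left out it ranged from -0.24 to -0.14. Itgb3 was called after quantile normalization (-0.12) and with array weights (-0.10), and ranged from -0.14 to -0.087 with 1 array left out. Of the 10 genes, 0 were higher and 2 lower at a minimum of 1.5-fold, and at an adjusted p of 0.1 the counts were 2 and 6. Of all genes, 2496 were higher and 3665 lower; 3943 were higher after quantile normalization (54.4% of calls against 40.5%), 4195 with array weights and 1458 with each gene's own variance. Of the other integrins 4 were higher after quantile normalization or subtraction of medians, 5 with array weights (and 1 lower), 1 without genes under the 50th percentile and 0 with each gene's own variance; with 1 array left out 1 to 4 were higher and 0 to 1 lower. With array weights 8 ligands were lower, 8 linkers higher, 5 traffic genes higher and 2 hemidesmosome genes lower, and after quantile normalization 8 linkers were higher. Hemidesmosome genes lower numbered 2 with either filter on dim genes, 0 with each gene's own variance and 0 to 2 with 1 array left out. Traffic genes lower numbered 1 with the filter at the 50th percentile. With each gene's own variance, signalling genes numbered 1 higher and 3 lower, traffic genes 1 and 1, and membrane partners 1 and 4. Among the other genes named by the rule stated above, 2 turned direction while far from the threshold. These were Vtn after subtraction of medians (0.0094) and between -0.050 and 0.029 with 1 array left out, and Cd151 with array weights (-0.066) and between -0.073 and 0.056 with 1 array left out. The cause of these shifts was not tested.

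The labels give both groups replicate numbers 1 to 3. Deviations from the group means of same-numbered arrays correlated at 0.134, -0.204 and -0.0208 across genes. Those of differently numbered arrays correlated at -0.349 to 0.339. With 3 arrays per group the deviations within a group depend on each other, so this check cannot decide whether the numbers pair the arrays. With a replicate block 2 of the 10 integrins were higher and 5 lower, and 2398 and 3581 of all genes. Among the genes named by the rule stated above only Fermt1 lost its call (adjusted p = 0.0669). Ligand genes called higher went from 7 to 6. Genes named outside that rule, such as Tnc and Npnt, were followed only through the counts of their lists. Signal near background limits Itga2 and most of the other integrins.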
